A study of Mus musculus with 6 samples.

Results

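The type I interferon-induced genes described here are 45 genes that cells transcribe when interferon alpha or beta reaches their receptor, taken as a named list and without the genes of MHC class I presentation. They were looked up by symbol among the 50600 genes of the count table, and all 45 were found there. Of these, 44 were protein-coding, passed the filter on low counts and entered the comparison with 13475 genes in all. Mx2 was not tested because the annotation gives it as a pseudogene in part of the mouse strains, and its values are given as levels. The rule itself uses no measured value, but the list was drawn up with earlier results of these data known.

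The cells were the cardiac side population, which is the fraction of heart cells that pumps out a fluorescent DNA dye, sorted from suspensions depleted of cardiomyocytes and erythrocytes. PolyA RNA was sequenced in 6 libraries, 3 from wt mice of the strain C57BL/6NRj and 3 labelled flt3L-/-, a knock-out of the cytokine Flt3 ligand that the labels give as strain C57BL/6Flt3Ltml/mx on a C57BL/6N background. Mice were 8 to 12 weeks old, and the sort behind a library combined the hearts of 4 of them. A wt sort and an flt3L-/- sort were made on each of 3 dates, 2 in 2016 and 1 in 2017, and the pairs are numbered 1, 2 and 3 by date.

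Type I interferons bind a receptor of the subunits Ifnar1 and Ifnar2, whose Janus kinases phosphorylate Stat2. Together with Irf9 it enters the complex ISGF3, which binds a DNA element called ISRE in front of its target genes. The products of these genes block viruses at entry, translation, RNA stability and release, and several of them (Stat2, Irf9, Irf7) drive the pathway itself. Many tissues keep a low level of this programme without infection.

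Total counts lay between 24370913 and 31145519 per library, and 3 counts, taken as the limit of detection, correspond to 0.109 to 0.127 CPM, which are counts scaled to library size. Reads on Flt3l, the targeted gene, were not fewer in the knock-out libraries. They stood at 8.67, 10.8 and 12.1 CPM in wt libraries 1, 2 and 3 and at 13.6, 12.4 and 14.4 CPM in the libraries labelled flt3L-/-. Which part of the gene was deleted is not given in the labels, so reads counted over the whole gene may not show the knock-out. The libraries labelled flt3L-/- are called the labelled libraries below, which is no verdict on their genotype. Endothelial marker genes were abundant in all libraries, with summed levels of 7174 to 8842 CPM in wt and 7098 to 9339 CPM in the labelled libraries. All differences below are the labelled library minus the wt library, on the log2 CPM scale, and a difference of 1 is a doubling. In RNA of a mixed sort, fewer cells of a type and less RNA per cell cannot be told apart.

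The ISRE is what the members are thought to share in sequence, so it was looked for in their promoters. Promoter windows of 250 bases before to 50 bases after the transcription start were matched in RefSeq on GRCm38.p6 for 35 of the 45 members. The letters GAAA, any 2 bases and GAAA again, on either strand (TTTC, 2 bases and TTTC on the other), occurred in the windows of 15 of these 35 members, or 42.9%, and in 3.99% of the 27025 genes with a window. The letters TTC, any 3 bases and GAA of the GAS element, another DNA element of interferon responses, occurred in 9 of the 35 members (25.7%) and in 9.55% of all genes. These matches are descriptions of letters and not of bound sites.

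Stretches around the matches are shown for members that the values below return to, 5′ to 3′ on the strand of the gene, with the matched letters in capitals. Isg15 and Bst2 have runs of overlapping matches on the gene strand (chr4:156200855-156200916, minus strand, and chr8:71537567-71537622, minus strand), and Oas1a has such a run within 20 bases of its start (chr5:120907526-120907565, minus strand). Ifit1 (chr19:34640765-34640833), Ifit3 (chr19:34583353-34583436), Ifit3b (chr19:34607749-34607832) and Gbp2 (chr3:142620584-142620633), all on the plus strand, have the letters of the other strand. Irf1 (chr11:53769904-53769952, plus strand) is shown for its GAS letters.
Isg15: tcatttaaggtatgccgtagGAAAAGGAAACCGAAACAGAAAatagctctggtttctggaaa
Bst2: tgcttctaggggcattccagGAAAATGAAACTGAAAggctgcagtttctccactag
Oas1a: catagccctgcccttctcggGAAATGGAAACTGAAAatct
Ifit1: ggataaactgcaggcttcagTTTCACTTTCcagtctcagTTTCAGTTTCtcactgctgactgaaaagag
Ifit3: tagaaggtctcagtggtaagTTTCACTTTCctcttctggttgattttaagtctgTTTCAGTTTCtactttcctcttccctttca
Ifit3b: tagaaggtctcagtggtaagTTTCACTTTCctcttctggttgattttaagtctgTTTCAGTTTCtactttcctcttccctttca
Gbp2: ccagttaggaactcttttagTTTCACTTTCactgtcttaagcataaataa
Irf1: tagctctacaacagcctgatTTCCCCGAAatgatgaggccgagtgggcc
The stretches of Ifit3 and Ifit3b, neighbouring genes on chromosome 19, were identical at 84 of 84 bases. The map of ISRE letters shows that in 11 of the 15 members the letters stood before the start.

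**Figure D1:**
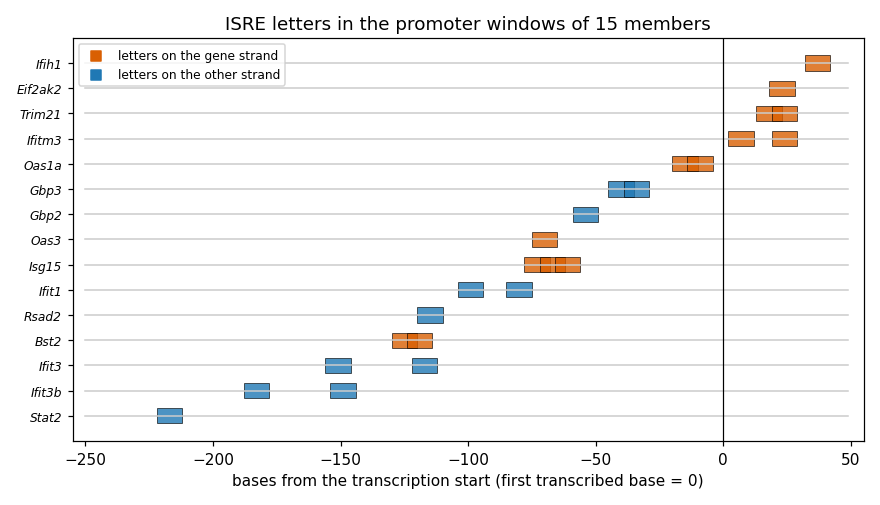
Position of the ISRE letters in the promoter windows of the 15 members that hold them, in bases from the transcription start; each box is 1 match, coloured by strand, and each line is the window. Matches lie from 222 bases before the start in Stat2 to 32 bases after it in Ifih1, and Isg15, Bst2, Oas1a, Gbp3 and Trim21 have overlapping matches.

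The members were transcribed at very different levels. Per kb of exon, the order was led by Ifitm3, a membrane protein that blocks the fusion of enveloped viruses, at a mean over the 6 libraries of 1043 CPM per kb with a range of 832 to 1694. Bst2 (tetherin), which holds budding virions to the cell surface, followed at 195 CPM per kb (118 to 395). Irf1, a transcription factor of interferon responses, at 113 CPM per kb (85.9 to 158) and Ifi27 at 103 CPM per kb (94.3 to 114) came next, with ranges that overlap each other. Gbp2, a guanylate-binding GTPase, followed at 84.8 CPM per kb (62.7 to 151), a range that overlaps that of Ifi27.

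At the other end stood Mx1, a gene of the dynamin-like GTPases, at 0.26 CPM per kb. It had 23 counts in wt library 1 and 3 counts in labelled library 1, the latter at the limit of detection. Oas3 had 0.279 CPM per kb and Epsti1 1.62 CPM per kb. Isg15 and Ifit1, the markers of the programme, lay at ranks 9 and 20 of this order, at 55.5 and 31.8 CPM per kb, and both were detected in every library.

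**Figure D2:**
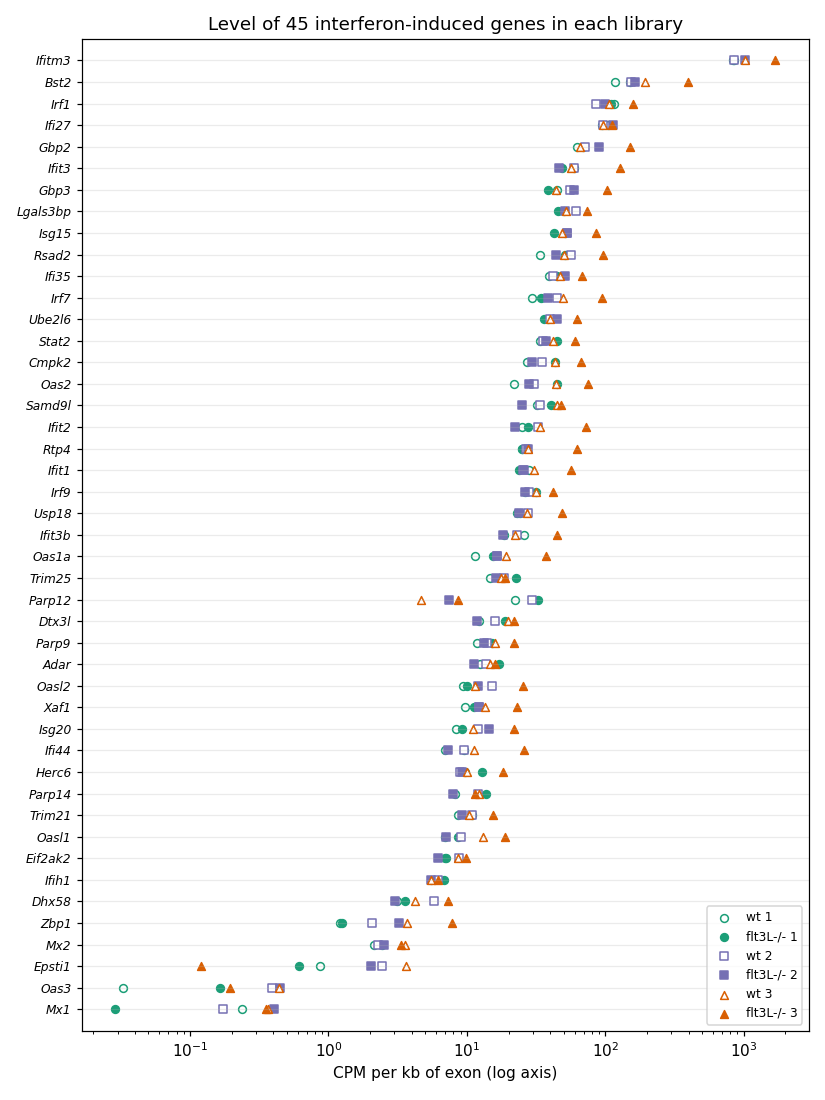
Level of each member in CPM per kb of exon on a log axis, with open symbols for wt and filled symbols for labelled libraries, and a shape and colour for each pair. The filled triangles of labelled library 3 lie to the right of the other 5 points for most genes, and Mx1, Oas3 and Epsti1 sit lowest with the widest relative spread.

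The question of the comparison is whether this programme differed between the side population of wt mice and that of mice labelled flt3L-/-. No gene passed the test. With edgeR's quasi-likelihood test and Benjamini-Hochberg adjustment over all genes, 0 of 44 members and 0 of 13475 genes (0%) had an adjusted p under 0.05, with 0.973 as the lowest adjusted p found. At an unadjusted p under 0.05 the count was 0 of 44 members, against 484 genes or 3.59% over all genes (1.11% higher and 2.49% lower). Leaving out a pair gave 1 such member without pair 1 (2.57% of all genes), 8 without pair 2 (7.47%) and 0 without pair 3 (1.87%). DESeq2 gave 0 members and 21 genes (0.156%) at an adjusted p under 0.05, and 2 members, Gbp2 and Oas2, at an unadjusted p under 0.05 (4.76% over all genes).

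The fitted log2 fold changes were nevertheless mostly above 0. They were positive for 40 of the 44 members, where 50% of all genes were positive, and negative for Epsti1, Mx1, Parp12 and Eif2ak2. Their median was 0.23, beside −0.00027 over all genes. The median came to 0.32 without pair 1, to 0.39 without pair 2 and to 0.068 without pair 3.

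Within pairs the members did not go the same way. In pair 1 the median difference was 0.19, and 30 of 44 members were higher in the labelled library (54.1% of all genes). In pair 2 it was −0.14, with 18 of 44 higher (50.4% of all genes). In pair 3 it was 0.75, with 40 of 44 higher (51.2% of all genes). Over all genes the medians were 0.04, 0.0035 and 0.01.

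The size of the differences followed the same order. More than 1.5-fold higher in the labelled library were 7 members in pair 1 (11.4% of all genes), 2 in pair 2 (6.14%) and 25 in pair 3 (8.41%). More than 1.5-fold lower were 1 member in pair 1 (13.4%), 3 in pair 2 (10.3%) and 2 in pair 3 (17.7%). For 30 of the 44 members the largest difference of the 3, without regard to sign, was that of pair 3. Its share over all genes was not counted. Over all genes the quartiles were −0.27 and 0.30 in pair 1 and −0.24 and 0.22 in pair 2. In pair 3 they were −0.37 and 0.27, the widest of the 3.

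**Figure D3:**
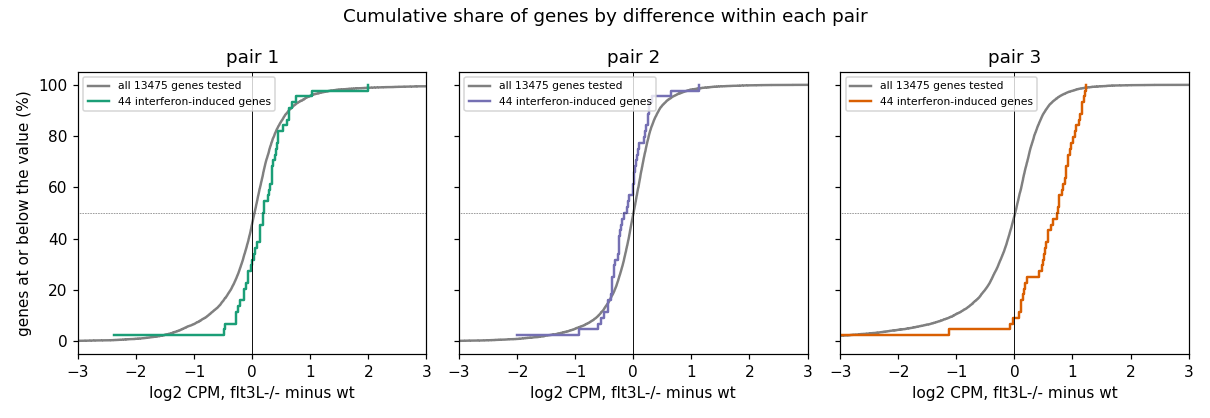
Cumulative share of genes, in %, by the log2 CPM difference of labelled minus wt library in each pair, for the 44 members tested (coloured) and all 13475 genes (grey). The coloured curve crosses 50% at 0.19 in pair 1, at −0.14 in pair 2 and at 0.75 in pair 3, while the grey curve crosses it near 0 each time.

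A total of 9 members were higher in the labelled library of each pair, which is 20.5% of those tested beside 14.2% of all genes. These were Stat2, Herc6, Zbp1, Oas1a, Gbp2, Ifitm3, Bst2, Isg20 and Ifi35. Only Epsti1 of the 44 was lower in each pair (11.5% of all genes). Where a pair was left out, 16 members were higher in both others without pair 1, 27 without pair 2 and 10 without pair 3. Agreement in both pairs kept is a looser rule than agreement in all 3, and its share over all genes was not counted. For no member did the 3 labelled libraries lie all above the 3 wt libraries (3.53% of all genes) or all below them (2.92%).

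Labelled library 3 stood apart. It was the highest of the 6 libraries for 35 of 44 members (27.4% of all genes), and for 21 of 44 it exceeded the next highest library by more than 1.5-fold, against 1.91% of all genes. The summed level of the members was 4260, 4811 and 5120 CPM in wt libraries 1, 2 and 3 and 4926, 4578 and 8361 CPM in the labelled libraries. The first 5 of these sums lie close together and the last stands above them. Wt library 1 was the lowest of the 6 for 21 of 44 members, a count not made over all genes. Labelled library 3 also had the lowest level of the blood cell marker Ptprc, 79.2 CPM against 96.4 CPM in wt library 1 and 596 CPM in wt library 3. The part of cell type markers was not tested.

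The spread between libraries of a group was also compared. The coefficient of variation of the members had a median of 14.5% among the wt libraries, where it was 17.0% over all genes, and of 42.1% among the labelled libraries, where it was 21%. It was larger in the labelled libraries for 43 of 44 members (61.4% of all genes). Without labelled library 3 the other 5 libraries had a median of 16.5%, beside 17.9% over all genes.

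**Figure D4:**
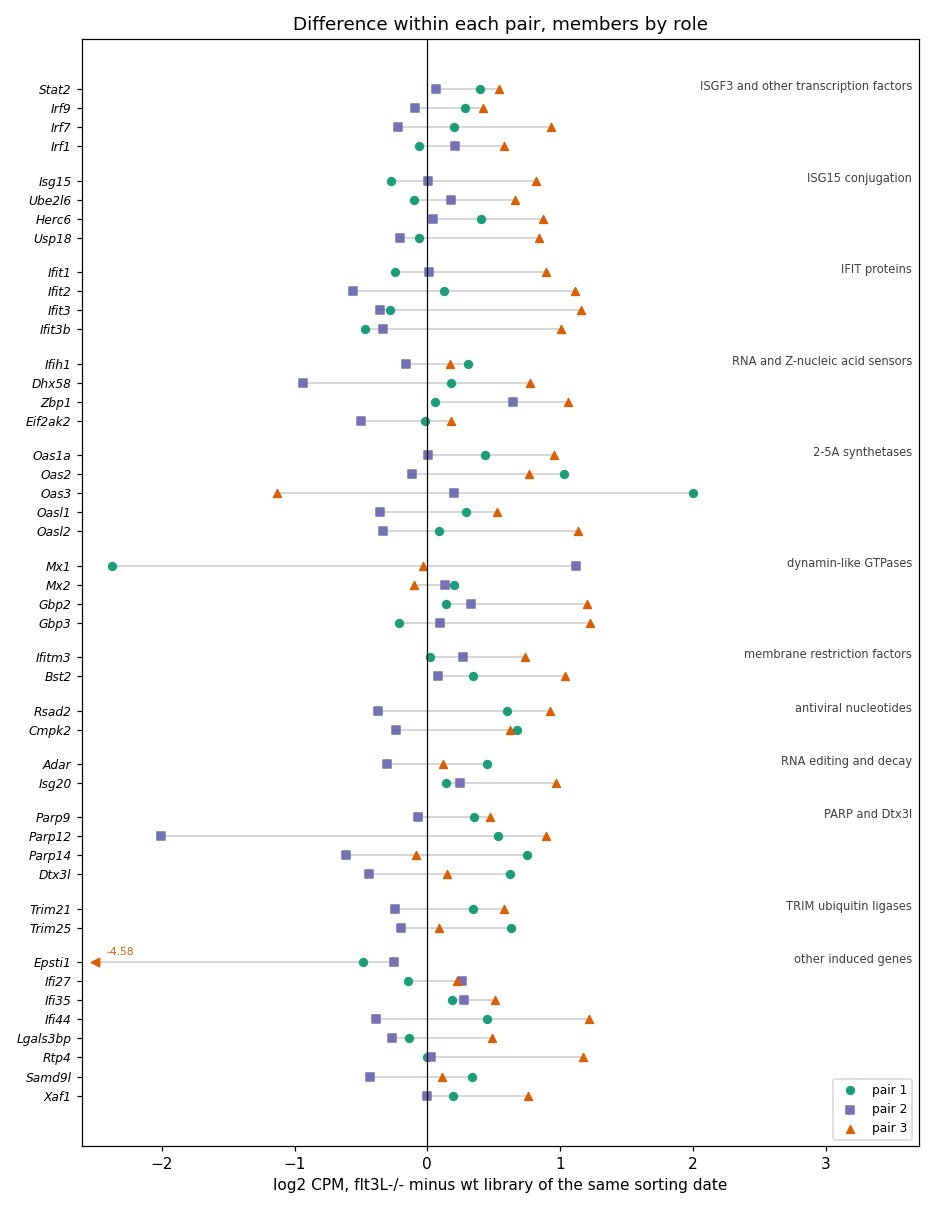
Difference of labelled minus wt library on the log2 CPM scale for each member in pair 1 (circles), pair 2 (squares) and pair 3 (triangles), grouped by role. Triangles are rightmost for most genes, the IFIT genes have squares and circles near or below 0, and the triangle of Epsti1 at −4.58 lies off the axis at the left.

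Among the transcription factors, all 4 had a positive fitted value (median 0.27), and their median differences were 0.24, −0.01 and 0.56 in pairs 1, 2 and 3. Stat2, the ISGF3 subunit that is particular to interferon alpha and beta and to lambda, had 201, 211 and 247 CPM in wt libraries 1, 2 and 3 and 265, 221 and 358 CPM in the labelled libraries. It was higher in each pair, but labelled library 2 lay below wt library 3, so the groups overlapped. The fitted log2 fold change of Stat2 was 0.34 with SE 0.15 and an unadjusted p of 0.0795 in edgeR's quasi-likelihood test. Irf1 had 461, 342 and 420 CPM in wt and 440.5, 396 and 627 CPM in the labelled libraries, overlapping except for the last. Irf7, the factor that amplifies interferon production, ranged from 112 to 187 CPM in wt and had 129, 145 and 356 CPM in the labelled libraries.

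Isg15 (ENSMUSG00000035692, chr4:156199424-156200818 on GRCm38) encodes a ubiquitin-like protein that is attached to other proteins, Ube2l6 is the conjugating enzyme, Herc6 the ligase in mice, and Usp18 removes Isg15 and also damps the receptor. Isg15 had 38.7, 40 and 36.6 CPM in wt libraries 1, 2 and 3 and 32.1, 40.1 and 64.6 CPM in the labelled libraries. The wt mean was 38.4 ± 1.73 CPM (SD, n = 3) and that of the labelled libraries 45.6 ± 17 CPM (SD, n = 3), and the groups overlapped, since the lowest and the highest library were both labelled ones. Its log2 fold change was 0.18 with SE 0.25 and turned to −0.13 without pair 3.

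Herc6 had 89.8, 83.4 and 92.8 CPM in wt and 119, 86.1 and 169.7 CPM in the labelled libraries. The second labelled library lay within the wt range and labelled libraries 1 and 3 above it, with a log2 fold change of 0.44, SE 0.20 and an unadjusted p of 0.0755 in edgeR's test. The gene Gm45193 covers 13.7% of the exon bases of Herc6, and reads of both genes cannot be told apart in these unstranded libraries. Ube2l6 and Usp18 were even in wt (76.6 to 79.2 and 67.4 to 76.6 CPM) and reached 125 and 136 CPM in labelled library 3.

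The IFIT genes, whose products bind viral RNA with foreign 5′ ends and block its translation, lie side by side at chr19:34550694-34650009. Ifit1 (ENSMUSG00000034459) had 75.2, 67.5 and 81 CPM in wt libraries 1, 2 and 3 and 63.5, 68.2 and 151 CPM in the labelled libraries, with means of 74.6 ± 6.81 and 94.2 ± 49.1 CPM (SD, n = 3 each). Ifit2 had 98.6, 128 and 133 CPM in wt and 108, 86.8 and 287 CPM in the labelled libraries. In both genes labelled library 3 alone lay above wt, and another labelled library was the lowest of all 6.

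Ifit3 had 103, 104 and 99.3 CPM in wt and 84.6, 81.3 and 221 CPM in the labelled libraries. Ifit3b had 51.4, 45.8 and 44.4 CPM in wt and 37.2, 36.2 and 89.1 CPM in the labelled libraries. Both were lower in labelled libraries 1 and 2 than in any wt library and highest in labelled library 3. Since 38.7% of the 81-base stretches of Ifit3 occur in Ifit3b as well, and reads with several hits were placed at random, the split between them is uncertain, and their sum was 0.788, 0.783 and 2.16 times wt in pairs 1, 2 and 3.

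As a group the IFIT genes had median differences of −0.26, −0.35 and 1.06, the widest gap between pair 3 and the others among the roles with 4 members or more. The fitted log2 fold changes of all 4 were positive, between 0.06 and 0.22, with unadjusted p-values of 0.427 or more in edgeR's test. Without pair 3 they were −0.11 for Ifit1, −0.22 for Ifit2, −0.32 for Ifit3 and −0.40 for Ifit3b.

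The sensors of foreign nucleic acid had median differences of 0.12, −0.33 and 0.48. Ifih1 (Mda5), a sensor of long double-stranded RNA, had 44.9, 50.7 and 44.7 CPM in wt and 55.6, 45.2 and 50.3 CPM in the labelled libraries, which overlap. Zbp1, a sensor of Z-form nucleic acid that can start necroptosis, had 4.28, 7.33 and 13.1 CPM in wt and 4.44, 11.5 and 27.4 CPM in the labelled libraries. Zbp1 was lowest in pair 1 and highest in pair 3 in both groups, and its log2 fold change of 0.60 (SE 0.26, unadjusted p = 0.0753 in edgeR's test) was the largest of the members. Eif2ak2 (Pkr), the kinase that stops translation on double-stranded RNA, had 36.1, 44.7 and 44.3 CPM in wt and 35.6, 31.6 and 50.1 CPM in the labelled libraries. Its log2 fold change was −0.11 with SE 0.18, and 0.06 without pair 2.

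Several members of the 2-5A synthetase family make the messenger that activates RNase L, and the median differences of the family were 0.43, −0.12 and 0.77. Oas2 had 97.2, 136 and 195 CPM in wt and 199, 125 and 332 CPM in the labelled libraries. Pair 1 showed the largest difference of this gene, 1.03, while pair 2 showed −0.12, and the fitted value was 0.56 with SE 0.26 and an unadjusted p of 0.0814 in edgeR's test. Oas1a had 21.7, 30.9 and 36.4 CPM in wt and 29.2, 31.1 and 70.3 CPM in the labelled libraries. Of its 81-base stretches 45.8% recur in Oas1g, and the sum of both was 1.31, 0.959 and 1.99 times wt in pairs 1, 2 and 3. Oas3, which had 6 counts in wt library 1, was highest in labelled library 2 at 3.18 CPM and went the other way in pair 3, at −1.13.

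Of the dynamin-like GTPases the guanylate-binding proteins, which attack the membranes of vacuoles that hold pathogens, were expressed well and the Mx genes weakly. Gbp2 had 158, 179.8 and 165 CPM in wt and 174, 225 and 379 CPM in the labelled libraries. Labelled library 1 lay within the wt range and labelled libraries 2 and 3 above it, and the log2 fold change was 0.55 (SE 0.25, unadjusted p = 0.0766 in edgeR's test). Gbp3, its neighbour at chr3:142560026-142573209, had differences of −0.21, 0.10 and 1.22. Mx1 had 0.894, 0.66 and 1.38 CPM in wt and 0.109, 1.53 and 1.35 CPM in the labelled libraries, with no order by group. The fitted value of Mx1 was −0.36 with SE 0.91, 0.57 without pair 1, and 0.02 without the date in the model. Mx2 had 7.70, 8.26 and 12.9 CPM in wt and 8.85, 9.08 and 12 CPM in the labelled libraries.

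Both membrane factors were higher in each pair. Ifitm3 had 564, 576 and 689 CPM in wt and 574, 693 and 1149 CPM in the labelled libraries. Bst2 had 107, 139 and 174 CPM in wt and 135, 147 and 357 CPM in the labelled libraries. Their groups overlapped in spite of the pairs, because the levels differed between dates in wt too, and the log2 fold changes were 0.34 (SE 0.19) and 0.49 (SE 0.22), with unadjusted p-values of 0.137 and 0.081 in edgeR's test.

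Rsad2 (viperin) makes a chain-terminating nucleotide from the CTP that its neighbour Cmpk2 helps supply, and the genes lie together at chr12:26442746-26479837. Rsad2 had 146, 247 and 218 CPM in wt and 222, 190.3 and 415 CPM in the labelled libraries. Their differences lay near each other in every pair, from 0.60 to 0.68 in pair 1, from −0.38 to −0.24 in pair 2 and from 0.63 to 0.93 in pair 3. Of the genes of RNA editing and decay, Adar, which edits double-stranded RNA, had 101, 112 and 119 CPM in wt and 139, 90.9 and 129.5 CPM in the labelled libraries, which overlap. Its fitted value of 0.09 (SE 0.18) was −0.10 without pair 1, and Chrnb2 covers 16.8% of its exon bases. Isg20, an exonuclease, had differences of 0.14, 0.25 and 0.97.

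The PARP genes and Dtx3l, enzymes of ADP-ribosylation and the ubiquitin ligase partner of Parp9, had another order of pairs, with medians of 0.58, −0.53 and 0.31. Parp12 had 89.2, 119 and 18.5 CPM in wt and 129, 29.5 and 34.5 CPM in the labelled libraries. It was high in both libraries of pair 1 and in wt library 2 and low in the other 3, so the levels did not follow the groups. Parp14 had 76.5, 112 and 113 CPM in wt and 129, 73.3 and 107 CPM in the labelled libraries. Parp14 had a fitted value of 0.02 (SE 0.29), which was −0.02 with library sizes alone as scaling and −0.35 without pair 1. Parp12, at −0.14 (SE 0.64), had 0.69 without pair 2.

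The TRIM ubiquitin ligases resembled them, with medians of 0.49, −0.22 and 0.33. Trim25, which activates the RNA sensor Rig-I, had 84.4, 106 and 102 CPM in wt and 131, 92.9 and 108 CPM in the labelled libraries. The groups overlapped, and its fitted value of 0.17 (SE 0.20) was −0.05 without pair 1.

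Among the other induced genes, Ifi35 had the smallest unadjusted p of the 44 members. It stood at 68.0, 72.6 and 81.7 CPM in wt and 77.5, 87.8 and 116 CPM in the labelled libraries, higher in each pair and overlapping in one library. The log2 fold change was 0.32 (SE 0.13, unadjusted p = 0.0612, adjusted p = 0.973 in edgeR's quasi-likelihood test), and Gm11626 covers 16.8% of the exon bases of Ifi35. Ifi27, a mitochondrial and nuclear envelope protein, had the smallest ratio of highest to lowest library of the members, with 153, 140.4 and 141 CPM in wt and 138, 168 and 165 CPM in the labelled libraries. Rtp4, a chaperone of receptors, had 53.5, 57.4 and 59.0 CPM in wt and 53.4, 58.5 and 133 CPM in the labelled libraries. Labelled library 3 lies far above the other 5, which lie within 6 CPM of each other, and Gm45338 covers 13.9% of the exon bases of Rtp4.

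Samd9l, an antiviral and growth-restricting protein, had 175, 183 and 241 CPM in wt and 221, 136 and 260.3 CPM in the labelled libraries. Its fitted value of 0.0055 (SE 0.19) took either sign with the scaling and the filter. Epsti1, which was named for its induction in epithelium by stroma and is also made by macrophages, had 2.02, 5.67 and 8.38 CPM in wt and 1.42, 4.75 and 0.277 CPM in the labelled libraries. It went against most other members in pair 3, at −4.58, with 7 counts in labelled library 3. Its fitted value was −1.56 with SE 1.06 and an unadjusted p of 0.201 in edgeR's test.

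Members that had the ISRE letters in their window had a median difference of 0.90 in pair 3, and the 20 members with a window and without the letters had 0.60. Their medians of the fitted log2 fold change were 0.30 and 0.23. Exon length went with the pattern over pairs. The 22 members with less than 3780.5 bases of exon had medians of 0.0098, 0.01 and 0.87 in pairs 1, 2 and 3, and the 22 longer ones 0.40, −0.22 and 0.50. Among all genes split at the same length, which was picked with the values in view, the medians were 0.0075, 0.11 and 0.09 for shorter and 0.06, −0.07 and −0.05 for longer genes. The part of length in the differences of the members was not tested.

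The upstream steps of the pathway were followed in lists of other genes. Of 21 interferon ligand genes, 18 had fewer than 3 counts in every library, Ifnb1 among them with at most 2 counts, and 10 had none in any. Only Ifng, the type II interferon, was tested. It had 0.855, 1.32 and 3.20 CPM in wt libraries 1, 2 and 3 and 0.401, 0.509 and 0.475 CPM in the labelled libraries, so the groups did not overlap and each labelled library lay below each wt library. The log2 fold change of Ifng was −1.75 (SE 0.56, unadjusted p = 0.0279, adjusted p = 0.973 in edgeR's quasi-likelihood test). Markers of NK cells, a main source of Ifng, are given beside it. Klrb1c had 7.93, 11.1 and 33.7 CPM in wt and 2.73, 4.92 and 2.53 CPM in the labelled libraries, with no overlap of the groups and a log2 fold change of −2.11 (SE 0.59, unadjusted p = 0.0169, adjusted p = 0.973 in the same test). Ncr1 and Nkg7 were lower in each pair too, with differences of −1.67, −0.13 and −3.45 and of −1.07, −0.17 and −3.14, and their groups overlapped. In pair 2 the difference of Ifng was −1.25, larger in size than that of Ncr1 or Nkg7. Klrb1c also fell in that pair, from 11.1 CPM in wt to 4.92 CPM in the labelled library. The 7 tested genes of the lymphocyte and NK cell list had medians of 0.32, 0.44 and −1.88 in pairs 1, 2 and 3. Fitted values were above 0 for 3 of these 7 and below 0 for 4. The part of NK cells in the level of Ifng was not tested.

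None of the 6 receptor genes had an unadjusted p under 0.05. Ifnar1 had 156, 164 and 191 CPM in wt and 165, 172 and 161 CPM in the labelled libraries, and Ifnar2 had 122, 144 and 130 CPM and 125, 137 and 178 CPM. Both overlapped between groups, with log2 fold changes of −0.03 (SE 0.14) and 0.13 (SE 0.16). The other receptors, Ifngr1, Ifngr2, Ifnlr1 and Il10rb, had fitted values of 0.02, 0.24, 0.83 and 0.28.

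Jak1 and Tyk2, the kinases at the receptor, had log2 fold changes of −0.07 (SE 0.19) and −0.03 (SE 0.20). Jak2 had 29.0, 64.8 and 16.5 CPM in wt and 72.0, 21.2 and 27.3 CPM in the labelled libraries. Its 3 highest libraries, labelled library 1, wt library 2 and wt library 1, are also those of Parp12, a likeness seen after the values were known. In Jak2, however, wt library 1 at 29.0 CPM lay close to labelled library 3 at 27.3 CPM.

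Of 20 sensors and adaptors that lead to interferon production, 18 were tested, with 13 fitted values above 0, 5 below and none at an unadjusted p under 0.05. Their medians were 0.26, 0.04 and −0.01 in pairs 1, 2 and 3. Of 14 negative regulators, 10 were above 0 and 4 below, with medians of 0.06, 0.14 and −0.02, and 1 had an unadjusted p under 0.05. This was Pias4, a SUMO ligase, with a log2 fold change of 0.38 (SE 0.14, unadjusted p = 0.0446, adjusted p = 0.973 in edgeR's quasi-likelihood test). Socs3, an inhibitor of Janus kinases and the most abundant of this list, had 707, 494 and 639.9 CPM in wt and 753, 639 and 528 CPM in the labelled libraries.

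Cell type markers also differed between the libraries of a pair, in pair 1 as well as in pair 3. Ptprc (CD45), which marks blood cells, had 96.4, 247 and 596 CPM in wt and 101, 237 and 79.2 CPM in the labelled libraries. The 10 macrophage and monocyte markers summed to 128, 784 and 2006 CPM in wt and to 526, 1194 and 369.6 CPM in the labelled libraries, and the 8 fibroblast markers to 16137, 8687 and 6730.3 CPM and to 6623, 10116 and 3383 CPM. The 10 markers of lymphocytes and NK cells summed to 43.7, 91.3 and 188 CPM in wt and to 31.2, 99.5 and 29.4 CPM in the labelled libraries. Markers of pericytes and smooth muscle cells (7 genes) summed to 272 to 568 CPM in wt and 207 to 353 CPM in the labelled libraries, and those of cardiomyocytes (6 genes) to 101 to 144 CPM and to 151 to 184 CPM. Labelled library 3 had the lowest Ptprc and fibroblast sums and the highest level of most interferon-induced genes. Wt library 1 had the next lowest Ptprc, 96.4 CPM. It also had the highest fibroblast sum, 16137 CPM, and the lowest summed level of the members, 4260 CPM. Epsti1 was highest in wt library 3 and lowest in labelled library 3, as was Ptprc. The 8 endothelial markers had median differences of 0.48, −0.20 and 0.27 in pairs 1, 2 and 3. Those of the members were 0.19, −0.14 and 0.75. The part of endothelial cells in the levels of the members was not tested.

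Plasmacytoid dendritic cells, a main source of type I interferon that depends on Flt3 ligand, were looked for by 8 markers. Of these, Siglech was at 0 in 4 libraries and at most at 0.194 CPM, Ly6d was at most at 0.349 CPM, and Klk1 was at 0 in all 6. Ccr9, Pacsin1 and Runx2 had counts in every library, at no more than 0.806, 1.3 and 2.48 CPM. Cox6a2 had 3.46, 6.87 and 7.26 CPM in wt and 7.5, 9.46 and 8.31 CPM in the labelled libraries, without overlap. Its log2 fold change was 0.59 (SE 0.28), with an unadjusted p of 0.0955 in edgeR's test. The summed cardiomyocyte markers did not overlap either, at 101 to 144 CPM in wt and 151 to 184 CPM in the labelled libraries. Whether reads of Cox6a2 came from cardiomyocytes was not tested. The summed level of the 8 plasmacytoid markers was 587 to 714 CPM in wt and 659 to 813 CPM in the labelled libraries. Most of it came from Tcf4, which endothelial cells express too. The 9 markers of conventional dendritic cells summed to 312 to 479 CPM in wt and 392 to 467 CPM in the labelled libraries, of which Zbtb46, expressed by endothelial cells too, made up 174 to 300.3 CPM. Itgax (CD11c) was lower in each pair, with 3.81, 12.4 and 16.8 CPM in wt and 1.64, 5.6 and 0.317 CPM in the labelled libraries. Flt3, the receptor of Flt3 ligand, had 0, 2.75 and 4.28 CPM in wt and 0.219, 1.27 and 0.435 CPM in the labelled libraries. Both overlapped between groups. Of the 8 tested genes of the conventional dendritic cell list, fitted values were above 0 for 4 and below 0 for 4. The medians of these 8 were 0.05, −0.0071 and −0.85 in pairs 1, 2 and 3. Whether these cell types bear on the differences of the members was not tested.

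**Figure D5:**
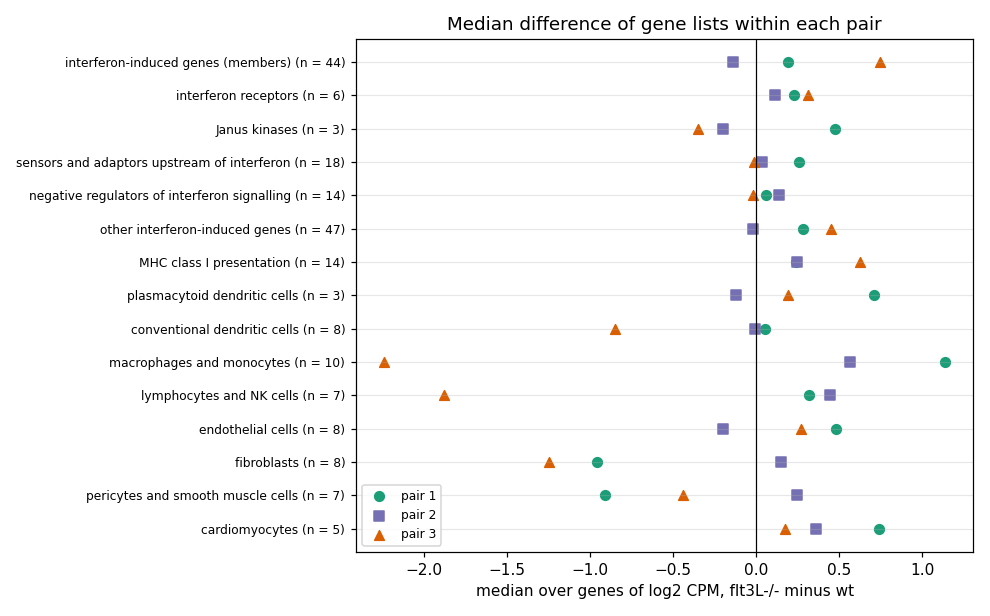
Median over the tested genes of each list of the log2 CPM difference of labelled minus wt library in pairs 1, 2 and 3, with the number of genes in brackets. In pair 3 the members stand at 0.75 and the macrophage and monocyte markers at −2.24, while receptors, sensors and negative regulators lie between −0.02 and 0.31.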

How the data were processed

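RNA of sorted side population cells was sequenced in 6 libraries. The deposited counts are whole reads per gene without normalization. By the study's methods and the submitters' processing notes, the authors checked reads with FastQC 0.11.3, mapped 81-base reads to mm10 with STAR 2.5.2a keeping reads with up to 10 hits, and counted them with QuasR 1.18.0 on Ensembl 88, without strand. Of the 50600 genes, 50376 were matched to a GENCODE annotation of GRCm38, and 224 were treated as not protein-coding.

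Genes were kept if protein-coding and above 1 CPM in 2 or more libraries, and were tested in edgeR 4.0.16 (R 4.3.3, limma 3.58.1) with TMM factors, estimateDisp, glmQLFit and glmQLFTest (legacy = TRUE). The filter, TMM, the quasi-likelihood test and the sorting date as covariate were taken from the study's methods, and the other settings were chosen here. The common dispersion was 0.0978. P-values are two-sided and were adjusted after Benjamini and Hochberg across every gene tested. Within-pair differences used a prior count of 2. The scripts were tested on simulated data.

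The sorting dates in the labels pair the libraries. After removal of group means, libraries of the same date correlated across genes at 0.180, 0.104 and 0.116, and those of different dates at −0.354 to 0.247, with 2 of these 6 above every same-date value. The pairing therefore rests on the dates. Replicates are sorts of pooled mice, so the spread is between pools. Within groups no library was a copy of another (chi-square per degree of freedom 57.3 or more). Limits of detection cover counting error only.

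The members and the lists were chosen with earlier results of these data known. Values in every library are given for Isg15 and Ifit1, for the most abundant member of each role, the 5 highest per kb, the 5 smallest p-values among positive and all 4 negative fitted values, and genes that share over 10% of their sequence with another gene. Other members are named after their values were seen. Alternatives were other normalizations, DESeq2 1.42.0, other filters, all biotypes, no replicate block, an adjusted p threshold of 0.1, and each pair left out. One gene of the pathway lists is not reported here.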

Additional observations from a re-analysis of the deposited data

How the results depend on the processing

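No member had an adjusted p under 0.05 in any of the alternatives run. The number of all genes called moved from 0 to 21 with DESeq2. The number of members with an unadjusted p under 0.05 was 0 as reported (3.59% of all genes). It was 2 with DESeq2 (Gbp2 and Oas2), beside 4.76% of all genes. Without a filter on low counts it was 1 (Oas2), beside 609 of 19612 genes. With each pair left out in turn it ranged from 0 without pair 3 (1.87% of all genes) to 8 without pair 2 (7.47%). These 8 were Cmpk2, Rsad2, Ifi44, Herc6, Oas2, Parp12, Bst2 and Oas1a. With a pair left out, the median log2 fold change lay between 0.068 and 0.39. Members higher in every pair kept, a looser rule with fewer pairs, numbered 10 to 27. Without the replicate block of sorting dates the median was 0.28, no member passed, and Mx1 turned to 0.017, while no other named member changed direction. Of 323 values of 27 named members under the alternatives, 305 kept their direction. Those that changed sign with a pair left out ranged from −0.095 to 0.26 for Adar, −0.26 to 0.059 for Eif2ak2, −0.11 to 0.46 for Ifit1, −0.22 to 0.60 for Ifit2, −0.32 to 0.42 for Ifit3, −0.40 to 0.34 for Ifit3b, −0.13 to 0.41 for Isg15, −1.27 to 0.57 for Mx1, −0.73 to 0.69 for Parp12, −0.35 to 0.31 for Parp14, −0.16 to 0.20 for Samd9l and −0.055 to 0.34 for Trim25. With library sizes alone Parp14 was −0.023 and Samd9l −0.034, and Samd9l was −0.0051 with filterByExpr and −0.0048 with all biotypes. Apart from the settings with fewer pairs, the cause was not tested. Without pair 3, Mx1 did not pass the filter. Depth limits Mx1, Oas3 and Epsti1, whose lowest libraries had 3, 6 and 7 counts.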

Other observations

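Interferon-induced genes outside the 45 members were described as a list of 49, of which 47 were tested. Fitted log2 fold changes were above 0 for 39 and below 0 for 8, with a median of 0.20. The medians by pair were 0.28, −0.02 and 0.45, again highest in pair 3. At an unadjusted p under 0.05 were 5 of the 47, all higher in the labelled libraries, where 1.11% of all genes were, and none had an adjusted p under 0.05 in edgeR's quasi-likelihood test. These were Ifi47, Ifitm2, Phf11b, Nmi and Oas1c, with log2 fold changes of 0.58, 0.33, 0.45, 0.35 and 0.95. Of these genes Iigp1, an immunity-related GTPase, and Gbp6, a guanylate-binding protein, are given as examples chosen after their values were seen. Iigp1 had 406, 289.7 and 246 CPM in wt libraries 1, 2 and 3 and 308, 319 and 662 CPM in the labelled libraries. Gbp6 had 149.9, 117 and 120.3 CPM in wt and 113, 165 and 380.5 CPM in the labelled libraries. In both genes the groups overlapped. Cxcl10, an interferon-induced chemokine, went another way in pair 1, at 81.3 CPM in the wt library against 25.6 CPM in the labelled one.

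The 14 genes of MHC class I presentation, which are not among the members, had a median log2 fold change of 0.38 and medians of 0.24, 0.24 and 0.63 in pairs 1, 2 and 3. In contrast to the members, 13 of the 14 were higher in the labelled library of pair 2, a difference between the lists that was not tested. B2m, the light chain of class I molecules, had 1146, 1506 and 1698 CPM in wt and 1248, 1725 and 3543 CPM in the labelled libraries.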
